A study of Mus musculus with 12 samples.

Results

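The adventitial fibroblast genes are a set of 10 genes whose transcripts mark the fibroblasts of the outer layer of the artery, namely Pdgfra, Dpt, Pi16, Gsn, Cd34, Ly6a, Clec3b, Pcolce2, Serpinf1 and Lum. They were taken from the table of 22183 genes by their symbols, each of which named 1 gene, and all 10 had enough counts to be tested in every comparison. Their transcripts were measured by bulk RNA sequencing of the aorta between its ascending part and the iliac bifurcation, in 12 libraries of male mice that lack apolipoprotein E (ApoE-/-). In the HFD+TUDCA group (4 libraries), mice had a high-fat diet of 16% fat and 0.25% cholesterol and then, after 8 weeks, 1000 mg/kg of tauroursodeoxycholic acid (TUDCA, a bile acid conjugated to taurine) by gavage each day for 4 weeks. The HFD group (4 libraries) had the same diet with saline gavage, and the NFD group (4 libraries) a diet of 5% fat without cholesterol, also with saline gavage. The mice entered the study at 8 weeks of age, and the absence of apolipoprotein E, which slows the clearance of lipoproteins, was common to all 3 groups. Whether the libraries are of separate animals is not stated in the labels, and p-values then measure only the spread between these libraries. The comparisons ask how the high-fat diet, and TUDCA given on top of it, go with the level of these transcripts.

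The adventitia is a sleeve of collagen-rich connective tissue that holds fibroblasts, small vessels, nerves and resident immune cells, and it borders on the perivascular fat. Its fibroblasts are recognised by the receptor PDGFRα, and they secrete collagen, proteoglycans and the proteins that assemble and process them. A subset with PI16, CD34 and the surface protein Sca-1 (encoded by Ly6a) has been described in many mouse tissues as a reservoir from which other fibroblasts arise. None of these transcripts is restricted to that cell: Cd34 and Ly6a are also made by endothelial cells and some blood-forming cells, Gsn by smooth muscle, and Serpinf1 by fat cells. In bulk tissue, fewer cells of a type and less RNA per cell cannot be told apart.

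Each library held 15199312 to 22061687 counts, and the 10 genes together took 0.251% to 0.459% of them in HFD+TUDCA, 0.297% to 0.378% in HFD and 0.376% to 0.480% in NFD. The lowest count of any of the 10 genes in any library was 294, so that all of them were well above the level at which a single count matters. Libraries differed in neighbouring tissue. The summed level of 10 heart muscle markers was 45.2 to 10186 CPM (counts scaled by library size) in HFD+TUDCA, 350.0 to 2443 CPM in HFD and 3188 to 8629 CPM in NFD. That of 8 airway epithelial markers was 6.03 to 4804 CPM in HFD+TUDCA, 23.6 to 1745 CPM in HFD and 2269 to 6114 CPM in NFD. For 8 adrenal cortex markers it was 6.28 to 11.9 CPM in HFD+TUDCA, 8.64 to 4431 CPM in HFD and 9.47 to 7147 CPM in NFD. The heart and the airway sum separated all HFD from all NFD libraries, and the part of this difference in the results was not tested.

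Of the 10 genes, 7 had an entry in the RefSeq promoter table for the mouse build GRCm38.p6. The 250 bases upstream of the RefSeq start are shown for the 3 of these 7 genes whose level was lowest relative to NFD under HFD+TUDCA. These are Cd34, Pcolce2 and Pi16, all on the plus strand, at chr1:194938571-194938820, chr9:95637378-95637627 and chr17:29318632-29318881. In GENCODE M21 the Pi16 gene spans 29317680 to 29330593, so its window lies inside the gene by that annotation and not upstream of it. Capitals mark a match to one of 4 motifs that were searched on both strands: the TATA box TATAAA, the CCAAT box CCAAT, the GC box GGGCGG and the AP-1 motif TGANTCA.
Cd34: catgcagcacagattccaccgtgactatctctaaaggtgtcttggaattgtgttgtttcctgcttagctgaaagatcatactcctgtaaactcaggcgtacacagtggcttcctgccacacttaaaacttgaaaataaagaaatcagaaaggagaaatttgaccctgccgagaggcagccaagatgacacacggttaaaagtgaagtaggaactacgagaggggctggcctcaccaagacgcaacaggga
Pcolce2: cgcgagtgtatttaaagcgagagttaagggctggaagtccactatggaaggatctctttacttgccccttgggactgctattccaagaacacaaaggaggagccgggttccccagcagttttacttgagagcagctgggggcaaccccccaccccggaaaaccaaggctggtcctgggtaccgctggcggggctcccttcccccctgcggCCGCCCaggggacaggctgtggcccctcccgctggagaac
Pi16: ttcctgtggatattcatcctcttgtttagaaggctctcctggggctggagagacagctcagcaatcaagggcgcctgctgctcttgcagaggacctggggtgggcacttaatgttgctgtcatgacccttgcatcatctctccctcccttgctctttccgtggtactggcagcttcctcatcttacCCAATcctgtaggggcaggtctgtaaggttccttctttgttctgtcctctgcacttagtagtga
The Cd34 window held none of the 4 motifs. That of Pcolce2 held 1 GC box on the minus strand, which starts 40 bases upstream, and that of Pi16 held 1 CCAAT box on the plus strand, 64 bases upstream. Among all 32851 windows of this length in the table, 12.4% held a TATA box, 33.9% a CCAAT box, 32.7% a GC box and 6.75% an AP-1 motif. The 3 windows thus shared no motif of the 4, which describes these letters only.

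Per length of transcript, the 10 genes covered a wide range, and their order changed between groups mainly through Lum. On the scale of FPKM (fragments scaled by transcript length and library size), Gsn was the highest in each group, with 1024 ± 311 FPKM in HFD+TUDCA, 767 ± 56.4 FPKM in HFD and 1124 ± 161 FPKM in NFD (SD, n = 4 each, as for every ± after a level). Ly6a came next with 318 ± 76.0 FPKM in HFD+TUDCA, 505 ± 103 FPKM in HFD and 311 ± 57.4 FPKM in NFD. In every group, the 4 libraries of Gsn lay above those of Ly6a, and those of Ly6a above those of the gene that followed. Pdgfra and Pcolce2 were the lowest, at 8.01 ± 1.77 and 5.51 ± 0.955 FPKM in HFD+TUDCA, 11.3 ± 2.90 and 5.18 ± 1.67 FPKM in HFD, and 10.4 ± 0.722 and 9.13 ± 1.04 FPKM in NFD. Lum ranked 6 of 10 in HFD+TUDCA (71.0 ± 40.4 FPKM), 3 of 10 in HFD (127 ± 92.3 FPKM) and 8 of 10 in NFD (30.1 ± 7.70 FPKM). Its libraries overlapped those of the next gene below in HFD+TUDCA and HFD, but not in NFD. Between these ends, Dpt, Serpinf1, Clec3b, Cd34 and Pi16 lay at 37.9 to 101 FPKM in HFD+TUDCA, 46.8 to 98.6 FPKM in HFD and 74.5 to 137 FPKM in NFD as group means, and neighbours in that order overlapped, except in NFD, where Dpt lay above Clec3b and Serpinf1 above Pi16 without overlap.

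Between HFD and NFD aortas, Cd34 fell and Ly6a rose, while the other 8 genes did not pass the test across all genes. Cd34 was 2.07-fold lower in HFD than in NFD, and Ly6a was 1.71-fold higher. Of the 10 genes, 7 had a negative log2 fold change, and their median was -0.49, beside 0.04 over all 14918 genes tested. A negative median was not particular to them. All 10 smooth muscle markers (median -0.40), all 10 white adipocyte markers (-0.36) and 7 of 8 mesothelial markers (-0.60) were negative as well. Macrophage markers went the other way, with 9 of 10 positive (median 1.10). Genes were called at an adjusted p under 0.05, and 2 of the 10 passed this threshold, whereas 4.83% of all genes tested did (3.18% higher and 1.64% lower). All genes together gave 475 higher and 245 lower calls under TMM scaling, 407 and 332 under upper-quartile scaling, and 320 and 375 in limma-trend on log2(FPKM + 1). Of the 10 genes, 8 had an unadjusted p under 0.05, as did 21.0% of all genes tested.

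**Figure D1:**
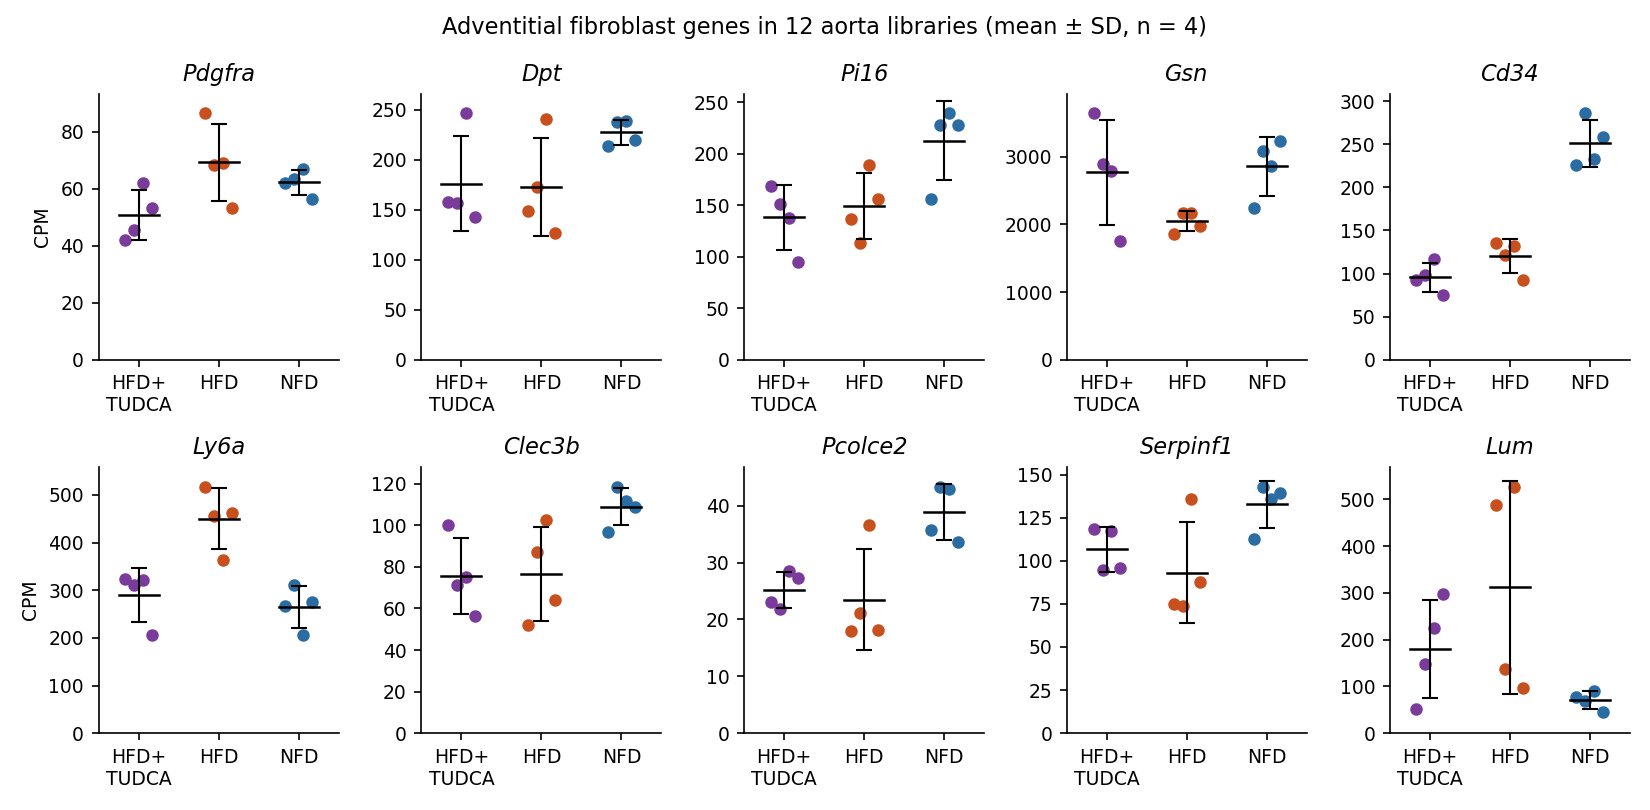
Levels of the 10 genes in CPM on the y axis, from 0, in HFD+TUDCA, HFD and NFD libraries on the x axis. Points are libraries in the order of their replicate number, the wide bar is the group mean and the whiskers ± 1 SD (n = 4). For Cd34, the 4 HFD+TUDCA libraries (74.9 to 117 CPM) and the 4 HFD libraries (92.7 to 135 CPM) lay below the 4 NFD libraries (226 to 286 CPM), while Lum was spread over 95.6 to 527 CPM in HFD.

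CD34 is a sialomucin of the cell surface found on adventitial stromal cells, endothelium and blood progenitors. Cd34 (ENSMUSG00000016494, GRCm38 chromosome 1, 194938819 to 194961279, plus strand, protein-coding) was at 92.3, 97.9, 117 and 74.9 CPM in the HFD+TUDCA libraries, 135, 122, 132 and 92.7 CPM in the HFD libraries, and 226, 286, 233 and 258 CPM in the NFD libraries, for replicates 1 to 4 in this and the following sentences of this kind. All HFD libraries lay below all NFD libraries. The log2 fold change in HFD against NFD was -1.05 ± 0.16 (the SE, as for all fold changes), with a Benjamini-Hochberg adjusted p of 0.00983 in the quasi-likelihood test of edgeR. It stayed past the threshold in all 8 fits that left out 1 library, with adjusted p from 0.00757 to 0.0366. Exons of Cd34 share 148 bases with an antisense gene, Gm16897, and since the counting is not stated to use strand, reads of both could not be told apart. Similar overlaps hold for Pi16 (222 bases) and Pdgfra (456 bases).

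Markers of endothelium, which also makes Cd34 transcript, did not pass the test in HFD against NFD for any of 10 genes, and their summed level was 1313 to 1942 CPM in HFD and 1563 to 1931 CPM in NFD. Of these 10 log2 fold changes, 7 were negative, with a median of -0.19. Pecam1, a junction protein of endothelial cells, averaged 552 ± 61.8 CPM in HFD and 623 ± 58.8 CPM in NFD (log2 fold change -0.17 ± 0.15, edgeR adjusted p = 0.592). Cdh5, which encodes VE-cadherin, averaged 271 ± 57.6 CPM in HFD and 262 ± 27.1 CPM in NFD (log2 fold change 0.05 ± 0.17, edgeR adjusted p = 0.895). Podxl, a relative of Cd34 in the same sialomucin family, was at 140.0 ± 45.5 CPM in HFD and 163 ± 12.4 CPM in NFD (edgeR adjusted p = 0.611), and Podxl2 at 10.5 ± 5.14 CPM in HFD and 11.8 ± 6.79 CPM in NFD (edgeR adjusted p = 0.870).

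Ly6a encodes Sca-1, a small lipid-anchored surface protein used to sort stromal and blood progenitors in mice. It is on chromosome 15 (74994877 to 74998031, minus strand, ENSMUSG00000075602), among other Ly6 genes. The HFD+TUDCA libraries had 324, 311, 321 and 205 CPM of Ly6a, the HFD libraries 517, 455, 363 and 463 CPM, and the NFD libraries 266, 311, 205 and 275 CPM. Every HFD library was above every NFD library, and above every HFD+TUDCA library as well. The log2 fold change of Ly6a in HFD against NFD was 0.77 ± 0.18 (edgeR adjusted p = 0.0446). The call was close to the threshold. With 1 library left out, it was held in 1 of 8 fits, the one without HFD replicate 3, and lost without HFD replicate 1, 2 or 4 or any NFD replicate, with adjusted p from 0.0213 to 0.144 over the 8 fits. It was also lost with upper-quartile scaling (edgeR adjusted p = 0.0534), without a low-count filter (0.0553), with HFD replicates 1 and 4 left out together (0.206), and in limma-trend on log2(FPKM + 1) (0.0846) and log2(FPKM + 0.1) (0.0963). Deposited counts of Ly6a were not whole in 4 of the 12 libraries, so reads may have been divided between near copies, and its level is uncertain to that extent. The related Ly6c1 averaged 318 ± 112 CPM in HFD and 319 ± 30.6 CPM in NFD (edgeR adjusted p = 0.995), and Ly6e 1018 ± 356 CPM in HFD and 799 ± 87.4 CPM in NFD (edgeR adjusted p = 0.470). Of the other Ly6 genes listed, named after their values were seen, Ly6c2 averaged 108 ± 71.2 CPM in HFD and 44.3 ± 7.82 CPM in NFD (log2 fold change 1.30 ± 0.47, edgeR adjusted p = 0.152). Ly6i averaged 4.32 ± 2.77 CPM in HFD and 2.14 ± 0.742 CPM in NFD (log2 fold change 1.02 ± 0.50, edgeR adjusted p = 0.282), and the neutrophil marker Ly6g rose, at 4.78 ± 3.20 CPM in HFD and 0.231 ± 0.157 CPM in NFD (edgeR adjusted p = 0.0164). Ly6c1 and Ly6c2 are near copies of each other, so that their levels are uncertain too.

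Among the secreted proteins of the matrix, Lum stood apart from the rest. Lumican, its product, is a small leucine-rich proteoglycan that binds collagen fibrils. The HFD+TUDCA libraries had 50.7, 148, 224 and 297 CPM of Lum, the HFD libraries 487, 136, 527 and 95.6 CPM, and the NFD libraries 78.1, 68.9, 90.3 and 46.1 CPM. All HFD libraries were above all NFD libraries, but the HFD values formed a low pair (replicates 2 and 4) and a high pair (replicates 1 and 3). HFD replicates 1 and 3 were also the highest HFD libraries in Dcn (decorin), at 1180, 687, 1053 and 369 CPM for replicates 1 to 4. The same held for the sum of 10 other fibroblast genes, Dcn among them, at 2318, 1371.5, 2473 and 1223.5 CPM. Lum had a log2 fold change of 2.15 ± 0.55 in HFD against NFD, the largest in size of the 10 genes, and did not pass the test (edgeR adjusted p = 0.0582). It passed without HFD replicate 2 (edgeR adjusted p = 0.0346), without HFD replicate 4 (0.0205) and in DESeq2 (adjusted p = 4.0e-04). All genes gave 870, 793 and 1703 calls in these 3 settings, against 720 in edgeR with all libraries.

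The level of Dpt, which encodes dermatopontin, a matrix protein that helps collagen fibrils to form, was 158, 157, 247 and 143 CPM in HFD+TUDCA libraries, 149, 173, 241 and 127 CPM in HFD libraries, and 213, 237, 239 and 219 CPM in NFD libraries. In both high-fat groups, replicate 3 was above the NFD range, and the other 3 libraries were below it. Pcolce2, whose product enhances the cleavage of procollagen, was at 23.1, 21.8, 28.5 and 27.3 CPM in HFD+TUDCA, 18.0, 21.2, 36.6 and 18.1 CPM in HFD, and 35.7, 43.3, 43.0 and 33.7 CPM in NFD. For Pcolce2, HFD replicate 3 was the only HFD library inside the NFD range. Serpinf1 encodes pigment epithelium-derived factor, a secreted serpin known to inhibit vessel growth. Its level was 118, 94.9, 117 and 95.7 CPM in HFD+TUDCA, 74.7, 74.0, 136 and 87.4 CPM in HFD, and 113, 143, 136 and 139.5 CPM in NFD, again with HFD replicate 3 apart from the other HFD libraries. The log2 fold changes in HFD against NFD were -0.39 ± 0.19 for Dpt, -0.73 ± 0.23 for Pcolce2 and -0.51 ± 0.20 for Serpinf1, and none passed the test (edgeR adjusted p = 0.278, 0.112 and 0.184). Without HFD replicate 3, all 3 passed, with log2 fold changes of -0.61, -1.03 and -0.76 (edgeR adjusted p = 0.0377, 0.00888 and 0.0207), a setting in which all genes gave 1181 calls, against 720 with all libraries.

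PI16, a secreted or membrane-anchored peptidase inhibitor, names the adventitial subset of fibroblasts. The HFD+TUDCA libraries had 169, 151, 138 and 95.0 CPM of Pi16, the HFD libraries 136, 114, 189 and 156 CPM, and the NFD libraries 156, 228, 239 and 228 CPM. NFD replicate 1 lay inside the HFD range and the other 3 NFD libraries above it. Clec3b encodes tetranectin, a plasminogen-binding lectin of plasma and matrix. It was at 100.2, 71.4, 75.3 and 56.1 CPM in HFD+TUDCA, 52.1, 87.1, 102 and 64.0 CPM in HFD, and 96.9, 119, 112 and 109 CPM in NFD, so that 1 library of HFD overlapped with NFD. Neither gene passed the test in HFD against NFD, with log2 fold changes of -0.51 ± 0.19 for Pi16 (edgeR adjusted p = 0.168) and -0.51 ± 0.20 for Clec3b (edgeR adjusted p = 0.181).

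Gsn encodes gelsolin, which severs and caps actin filaments in the cell and also exists as a secreted plasma form. It gave 53.0% to 77.2% of the summed CPM of the 10 genes in each library. The HFD+TUDCA libraries had 3644, 2888, 2789.7 and 1761 CPM, the HFD libraries 1865, 2164, 2170.3 and 1979 CPM, and the NFD libraries 2241, 3084, 2864 and 3237 CPM. All HFD libraries were below all NFD libraries, although the nearest pair differed little, and the test was not passed (log2 fold change -0.48 ± 0.18, edgeR adjusted p = 0.159). Gsn passed in DESeq2 (adjusted p = 0.0261), where all genes gave 1703 calls, against 720 in edgeR. In Pdgfra, the receptor for platelet-derived growth factors that defines fibroblasts in most tissues, the levels were 42.0, 45.5, 61.8 and 53.3 CPM in HFD+TUDCA, 86.4, 68.2, 68.8 and 53.3 CPM in HFD, and 62.0, 63.5, 67.0 and 56.2 CPM in NFD. The groups overlapped, and the log2 fold change in HFD against NFD was 0.17 ± 0.16 (edgeR adjusted p = 0.626). In all, 2 of the 10 genes were higher in HFD without overlap (Ly6a and Lum) and 2 lower (Cd34 and Gsn), where 8.10% and 6.89% of all genes tested were.

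**Figure D2:**
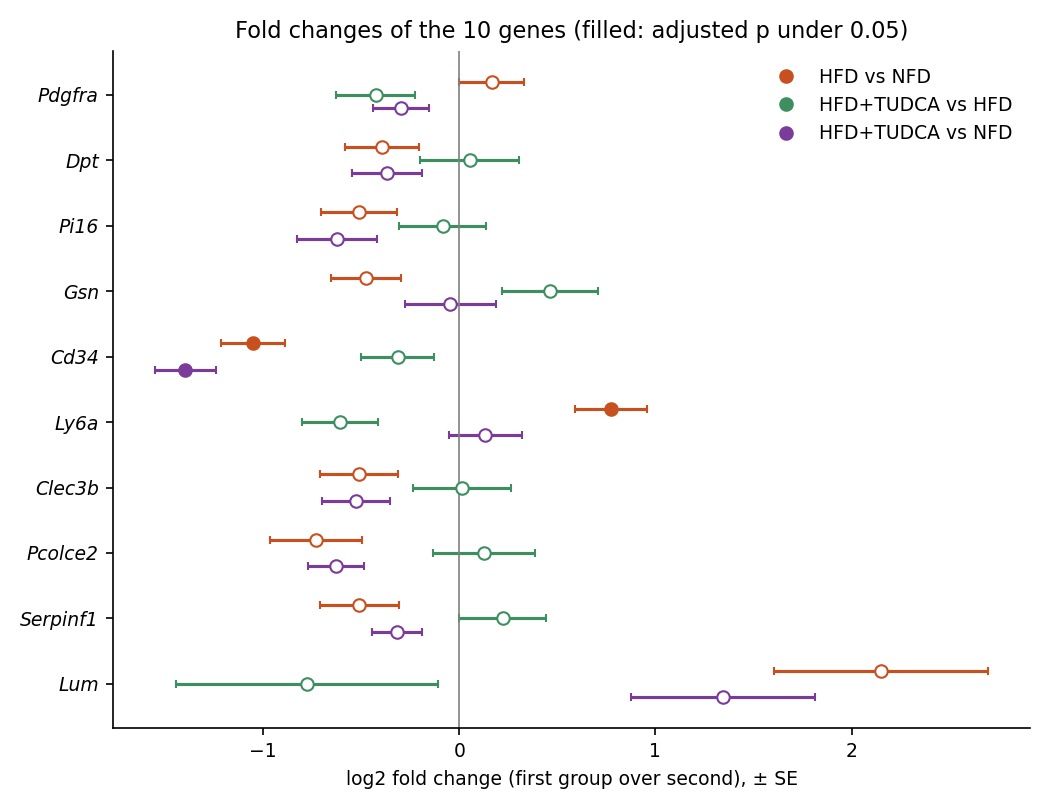
log2 fold changes (x axis, first group over second, ± SE) of the 10 genes (y axis) in HFD vs NFD, HFD+TUDCA vs HFD and HFD+TUDCA vs NFD. Filled points passed an adjusted p under 0.05: Cd34 in HFD vs NFD (-1.05) and HFD+TUDCA vs NFD (-1.40), and Ly6a in HFD vs NFD (0.77). The widest error is that of Lum.

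Between HFD+TUDCA and HFD aortas, none of the 10 genes passed the test, and no gene of the 14587 tested did in edgeR (0%). The lowest adjusted p of any gene was 0.147, while 1745 genes had an unadjusted p under 0.05. DESeq2 called 355 genes in the same comparison, none of them among the 10, and limma-voom called 0. The log2 fold changes of the 10 genes were positive in 5 and negative in 5, with a median of -0.04, beside 0.00 over all genes tested.

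The gene with the clearest separation was Ly6a, at 290.1 ± 56.8 CPM in HFD+TUDCA and 449 ± 63.9 CPM in HFD. All 4 HFD+TUDCA libraries (205 to 324 CPM) were below all 4 HFD libraries (363 to 517 CPM). The log2 fold change was -0.61 ± 0.20, with an unadjusted p of 0.0125 and an edgeR adjusted p of 0.314, and Ly6a was the only one of the 10 genes without overlap, where 7.53% of all genes tested had none (2.75% higher and 4.78% lower). The rise of Ly6a in HFD against NFD rests on the same 4 HFD libraries, so it and this difference are not independent. Gsn averaged 2771 ± 774 CPM in HFD+TUDCA and 2044 ± 149 CPM in HFD (log2 fold change 0.46 ± 0.24, edgeR adjusted p = 0.485). HFD+TUDCA replicates 1 to 3 were above every HFD library in Gsn, and replicate 4 was below every one. Pdgfra averaged 50.7 ± 8.83 CPM in HFD+TUDCA and 69.2 ± 13.5 CPM in HFD (log2 fold change -0.43 ± 0.20, edgeR adjusted p = 0.442), and Cd34 95.4 ± 17.2 CPM in HFD+TUDCA and 120.4 ± 19.3 CPM in HFD (log2 fold change -0.31 ± 0.19, edgeR adjusted p = 0.536). Lum was at 180.1 ± 105 CPM in HFD+TUDCA and 312 ± 227 CPM in HFD, a log2 fold change of -0.77 ± 0.67 that was little larger than its error (edgeR adjusted p = 0.667). The other 5 genes had log2 fold changes of -0.08 ± 0.22 (Pi16), 0.01 ± 0.25 (Clec3b), 0.05 ± 0.25 (Dpt), 0.13 ± 0.26 (Pcolce2) and 0.22 ± 0.22 (Serpinf1). For Pi16, Clec3b, Dpt and Pcolce2, the sign turned when some libraries were left out.

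Between HFD+TUDCA and NFD aortas, Cd34 fell, by 1.40 ± 0.15 on the log2 scale, or 2.63-fold (edgeR adjusted p = 0.00971). It was 1 of 10 genes past the threshold, where 0.194% of the 14942 genes tested were (0.0937% lower), 29 in all. The 4 HFD+TUDCA libraries (74.9 to 117 CPM) lay far below the 4 NFD libraries (226 to 286 CPM). The call was held in 5 of 8 fits that left out a library and lost without NFD replicate 1 (edgeR adjusted p = 0.0504), NFD replicate 2 (0.0537) or HFD+TUDCA replicate 2 (0.0586), while the log2 fold change stayed between -1.51 and -1.31. HFD+TUDCA and HFD are each set against the same 4 NFD libraries, so that the 2 results for Cd34 are not independent. Of the 10 endothelial markers, none passed in HFD+TUDCA against NFD, and 7 had a negative log2 fold change (median -0.27). Lower without overlap were 2 of them, where 3.43% of all genes tested were. These were Pecam1 and Emcn (an endothelial sialomucin, chosen after its value was seen). Pecam1 averaged 477 ± 58.2 CPM in HFD+TUDCA and 623 ± 58.8 CPM in NFD (log2 fold change -0.39 ± 0.14, edgeR adjusted p = 0.296), and Emcn 37.9 ± 7.55 CPM in HFD+TUDCA and 59.2 ± 2.65 CPM in NFD (log2 fold change -0.65 ± 0.15, edgeR adjusted p = 0.141). The endothelial sum was 1247 to 1643 CPM in HFD+TUDCA and 1563 to 1931 CPM in NFD, and its part in the result for Cd34 was not tested.

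Of the other 9 genes, 7 had a negative log2 fold change in HFD+TUDCA against NFD, and the median of the 10 was -0.34, beside 0.01 over all genes tested. Pcolce2 averaged 25.2 ± 3.20 CPM in HFD+TUDCA and 38.9 ± 4.94 CPM in NFD, without overlap (log2 fold change -0.63 ± 0.14, edgeR adjusted p = 0.136). It passed without HFD+TUDCA replicate 4 (edgeR adjusted p = 0.0336) and in DESeq2. All genes gave 682 and 543 calls in these settings, against 29 in edgeR with all libraries. Pi16 was at 138 ± 31.6 CPM in HFD+TUDCA and 213 ± 38.4 CPM in NFD (log2 fold change -0.62 ± 0.20, edgeR adjusted p = 0.253), and Clec3b at 75.8 ± 18.3 CPM in HFD+TUDCA and 109 ± 9.07 CPM in NFD (log2 fold change -0.53 ± 0.17, edgeR adjusted p = 0.254). Lum was on the other side, at 180.1 ± 105 CPM in HFD+TUDCA and 70.9 ± 18.7 CPM in NFD (log2 fold change 1.35 ± 0.47, edgeR adjusted p = 0.295), with HFD+TUDCA replicate 1 inside the NFD range and the other 3 libraries above it. Dpt (-0.37 ± 0.18), Serpinf1 (-0.32 ± 0.13), Pdgfra (-0.30 ± 0.14), Gsn (-0.05 ± 0.23) and Ly6a (0.13 ± 0.19) had edgeR adjusted p from 0.380 to 0.969. Without overlap there were 2 genes, Cd34 and Pcolce2, both lower, where 7.31% of all genes tested did not overlap (3.88% higher and 3.43% lower). An unadjusted p under 0.05 was found for 6 of the 10, and for 11.5% of all genes tested.

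**Figure D3:**
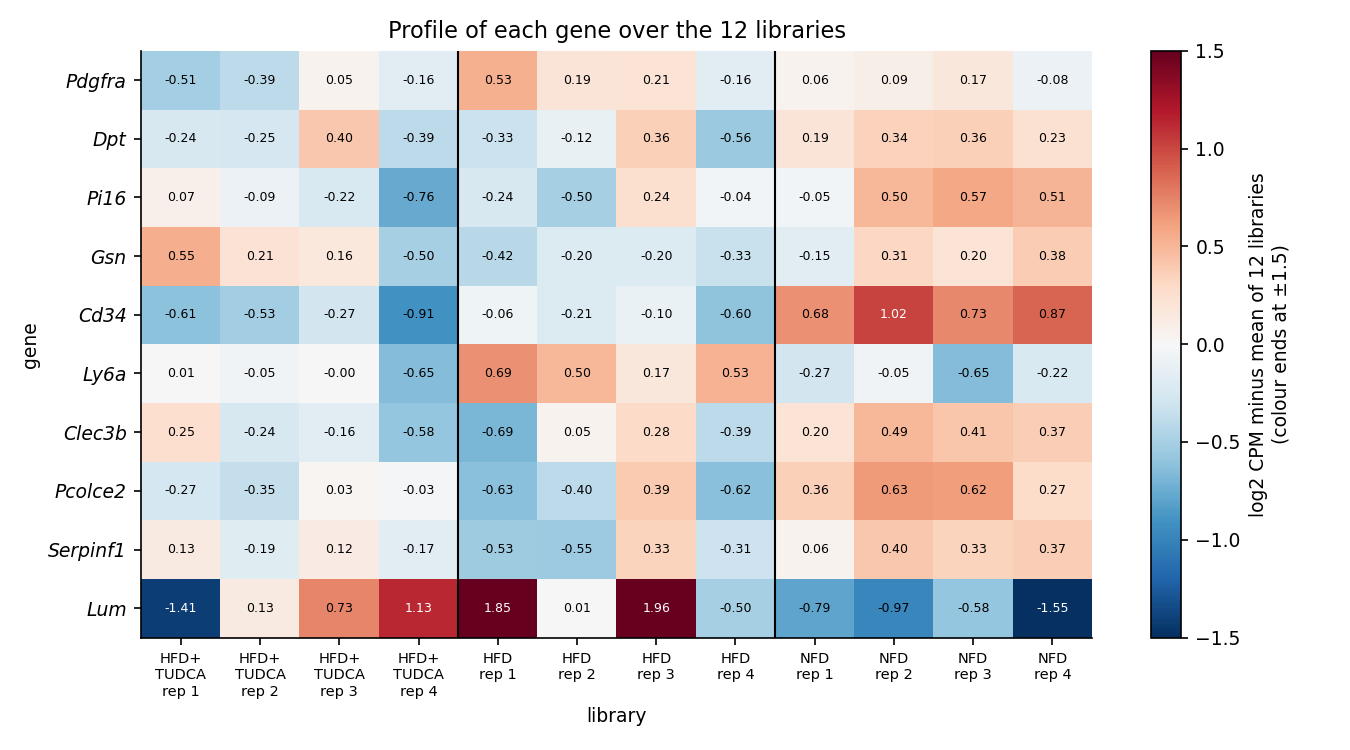
Profile of the 10 genes (y axis) over the 12 libraries (x axis, HFD+TUDCA, HFD, NFD), as log2 CPM minus the gene's mean over the 12 libraries, printed in each cell; colours end at ± 1.5. Cd34 is above its mean in the 4 NFD libraries only, Ly6a in the 4 HFD libraries and, by 0.01, in HFD+TUDCA replicate 1, and HFD replicate 3 is above the mean in 8 genes.

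The 10 genes did not move as 1 block over the 12 libraries. Likeness was taken as the root-mean-square difference between centred log2 CPM values over the 12 libraries, a description without a test, in which all points share the libraries and their depth. By this measure Dpt was nearest to the mean profile of the 10 genes (0.17 on the log2 scale) and Lum farthest (1.14), with Cd34 (0.49) and Ly6a (0.48) next to Lum. The closest pairs were Pcolce2 and Serpinf1 (0.22), Dpt and Serpinf1 (0.22) and Dpt and Pcolce2 (0.23), whereas Lum was the farthest gene from each of the others. HFD replicate 3 was the highest HFD library for 7 of the 10 genes, and HFD+TUDCA replicate 4 the lowest HFD+TUDCA library for 6. NFD replicate 1 was the lowest NFD library for 6. How often these libraries were highest or lowest over all genes was not counted, so these counts describe the 10 genes only. The ratio of Ly6a to Cd34 CPM separated the diets: it was 2.74 to 3.51 in HFD+TUDCA, 2.76 to 4.99 in HFD and 0.879 to 1.18 in NFD. As both genes were described first, this ratio is no further evidence.

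Among 14312 other genes with a mean of at least 1 CPM, those nearest to the mean profile of the 10 were Pigc (0.13), Thbs3 (0.14), Fbln2 (0.14), Fundc2 (0.14) and Heg1 (0.15), where the median of these genes was 0.42. Nearest to single genes were Smarce1 to Pdgfra (0.10), Dynlt1b to Cd34 (0.19), Ssbp4 to Ly6a (0.16), Sfrp1 to Dpt (0.19), Vwf to Pi16 (0.18), Snx33 to Gsn (0.11), Gpc3 to Clec3b (0.17), Amt to Pcolce2 (0.16), Ltbp4 to Serpinf1 (0.13) and Htr2b to Lum (0.47). In the deposited annotation, 8 of the 10 genes carried a term for the extracellular region or space, which 9.64% of genes tested did, and 3 (Dpt, Pcolce2 and Lum) a term for collagen-containing matrix, which 2.47% did.

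**Figure D4:**
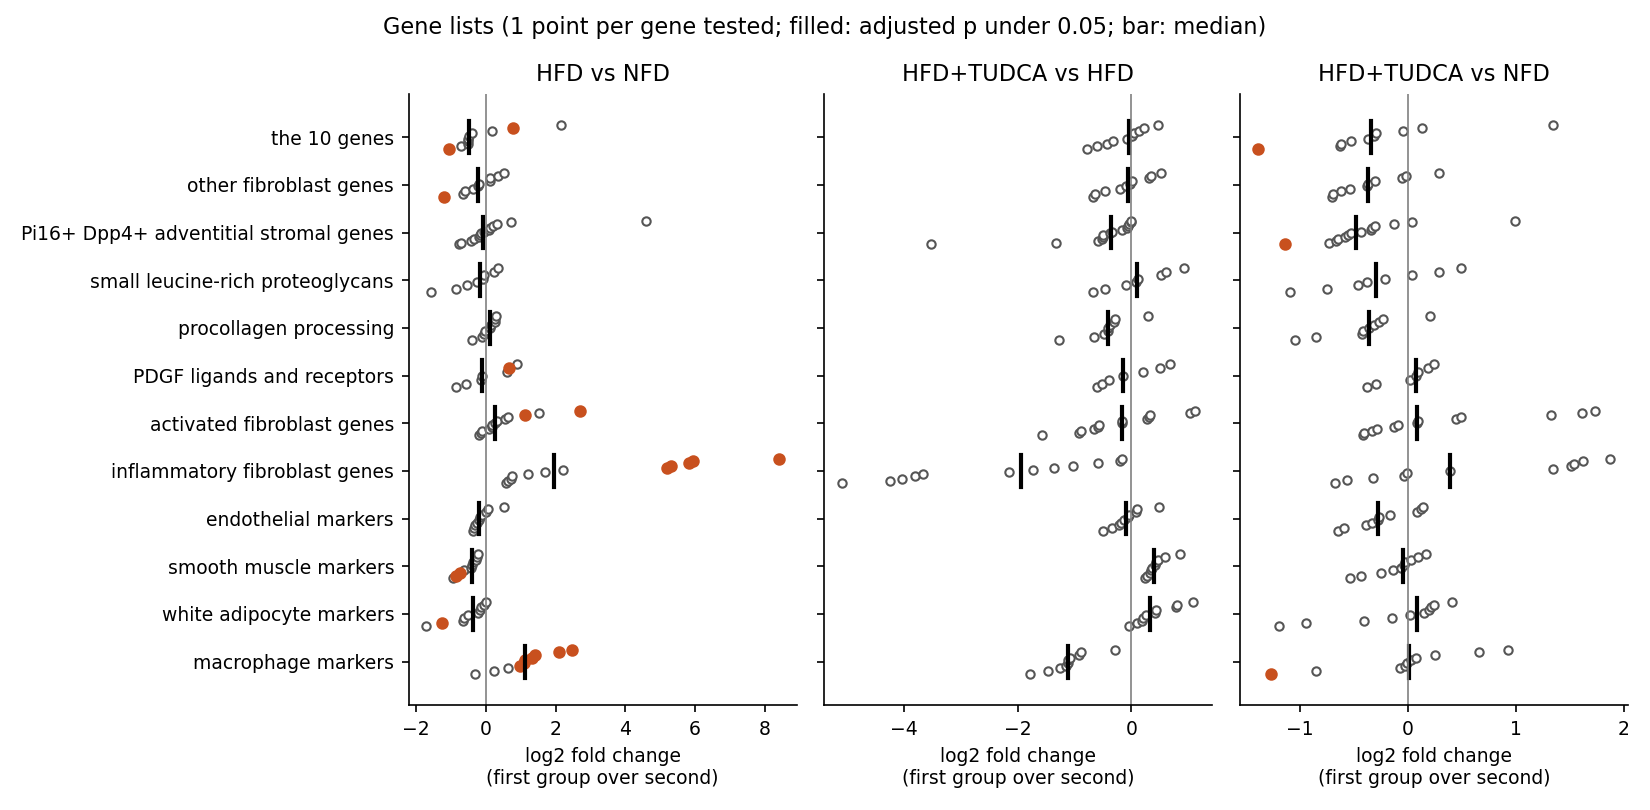
log2 fold changes (x axis, first group over second) of the genes tested in 12 gene lists (y axis), in 3 panels for the 3 comparisons, whose x axes differ in scale. Each point is 1 gene, filled when its adjusted p was under 0.05, and the bar is the list's median. The medians of the 10 genes were -0.49, -0.04 and -0.34, and those of the inflammatory fibroblast genes 1.95, -1.94 and 0.39.

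Other genes of fibroblasts were described from lists, with their counts set against the share of all genes called given above. Of 10 other fibroblast genes, 1 passed the test in HFD against NFD, in the lower direction, and the list's median log2 fold change was -0.22. Dcn (decorin) averaged 822 ± 367 CPM in HFD and 659 ± 167 CPM in NFD (edgeR adjusted p = 0.653), and Col1a2 (a collagen I chain) 468 ± 200.2 CPM in HFD and 432 ± 37.5 CPM in NFD (edgeR adjusted p = 0.859). The gene that passed, named after its value was seen, was Mfap4, a microfibril-associated protein, at 35.0 ± 11.5 CPM in HFD and 80.5 ± 17.4 CPM in NFD (log2 fold change -1.19 ± 0.26, edgeR adjusted p = 0.0345). Of 14 genes of the Pi16+ Dpp4+ stromal subset, none passed in HFD against NFD (median -0.09). Dpp4, the peptidase that names the subset, averaged 18.6 ± 5.12 CPM in HFD and 20.5 ± 4.92 CPM in NFD (edgeR adjusted p = 0.826), and Cd55 38.1 ± 15.9 CPM in HFD and 52.0 ± 10.4 CPM in NFD (edgeR adjusted p = 0.458). In HFD+TUDCA against NFD, 1 of the 14 passed, lower: Mfap5, also a microfibril protein and chosen after its value was seen, at 34.5 ± 5.58 CPM in HFD+TUDCA and 76.1 ± 7.85 CPM in NFD (log2 fold change -1.14 ± 0.15, edgeR adjusted p = 0.0194). The summed CPM of these 14 genes was 530 to 560.2 in HFD+TUDCA, 603 to 737 in HFD and 692 to 785 in NFD. Negative log2 fold changes were found for 13 of the 14 in HFD+TUDCA against HFD (median -0.37). In HFD+TUDCA against NFD they were found for 12 of the 14 (median -0.49) and for 9 of the 10 other fibroblast genes (median -0.38).

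Relatives of single members showed little that passed. Of 10 small leucine-rich proteoglycans, the family of Lum, 8 were tested in each comparison and none passed in any of the 3. Bgn (biglycan) averaged 1055 ± 334 CPM in HFD and 897 ± 120.3 CPM in NFD (edgeR adjusted p = 0.626). Of 10 procollagen-processing genes, 9 were tested and none passed in any comparison. Pcolce, the paralogue of Pcolce2, averaged 58.9 ± 11.5 CPM in HFD+TUDCA, 80.3 ± 34.4 CPM in HFD and 106 ± 30.6 CPM in NFD, with HFD+TUDCA below NFD without overlap (log2 fold change -0.85 ± 0.21, edgeR adjusted p = 0.166). Bmp1, a procollagen peptidase, was at 66.8 ± 21.6 CPM in HFD and 55.6 ± 2.73 CPM in NFD (edgeR adjusted p = 0.529). Among 7 PDGF ligands, receptors and activators, 1 passed in HFD against NFD, namely Plat (tissue plasminogen activator, which activates PDGF-CC), chosen after its value was seen, at 55.2 ± 8.65 CPM in HFD and 35.4 ± 1.19 CPM in NFD (log2 fold change 0.65 ± 0.14, edgeR adjusted p = 0.0349). The ligands Pdgfa and Pdgfc, which bind the receptor encoded by Pdgfra, had log2 fold changes of 0.61 ± 0.26 and 0.88 ± 0.35 in HFD against NFD (edgeR adjusted p = 0.221 and 0.185). Pdgfb, also a ligand of this receptor and named after its value was seen, was on the other side without overlap, at 28.5 ± 7.06 CPM in HFD and 42.5 ± 2.41 CPM in NFD (log2 fold change -0.57 ± 0.18, edgeR adjusted p = 0.110). Of 14 family relatives, 13 were tested in HFD against NFD and 2 rose, Capg (a gelsolin relative found in macrophages, log2 fold change 1.30 ± 0.16, edgeR adjusted p = 0.00340) and Ly6g (4.33 ± 0.77, edgeR adjusted p = 0.0164), both chosen after their values were seen.

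Fibroblasts are also known to take on activated, matrix-building and inflammatory states. Of 13 genes of activated fibroblasts, 2 rose in HFD against NFD, Timp1 (an inhibitor of metalloproteinases, log2 fold change 2.69 ± 0.45, edgeR adjusted p = 0.0135) and Runx1 (a transcription factor, 1.12 ± 0.23, edgeR adjusted p = 0.0281), named after their values were seen. Postn (periostin) averaged 138 ± 74.3 CPM in HFD and 132 ± 41.2 CPM in NFD (edgeR adjusted p = 0.940), and Cthrc1 3.86 ± 3.38 CPM in HFD and 1.36 ± 0.437 CPM in NFD (edgeR adjusted p = 0.218). Of 12 genes of inflammatory fibroblasts, 5 rose in HFD against NFD, and all 12 had a positive log2 fold change. They were Il6, Cxcl1, Ccl7, Ccl2 and Saa3, cytokines, chemokines and an acute-phase protein that macrophages also make, and they were chosen after their values were seen. Ccl2 averaged 3.29 ± 0.557 CPM in HFD+TUDCA, 47.5 ± 44.3 CPM in HFD and 1.29 ± 0.373 CPM in NFD (log2 fold change in HFD against NFD 5.20 ± 0.66, edgeR adjusted p = 0.00426). Cxcl12 averaged 446 ± 89.0 CPM in HFD and 292 ± 18.8 CPM in NFD (edgeR adjusted p = 0.0782), and Ccl11 27.2 ± 8.50 CPM in HFD and 16.2 ± 3.10 CPM in NFD (edgeR adjusted p = 0.103). In HFD+TUDCA against HFD no gene of these lists passed, and all 12 inflammatory genes had a negative log2 fold change. Of the 12, 7 were lower without overlap, where 4.78% of all genes tested were. Their median was -1.94 and no edgeR adjusted p of the 5 named genes was under 0.148. Both comparisons share the same 4 HFD libraries, so their results for these genes are not independent.

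Markers of other cells moved with the same groups. Of 10 macrophage markers, 7 rose in HFD against NFD, among them Cd68, and their summed level was 1379 to 4291 CPM in HFD+TUDCA, 6010 to 6382 CPM in HFD and 2309 to 3816 CPM in NFD. Cd68 averaged 85.1 ± 24.6 CPM in HFD+TUDCA, 191 ± 33.3 CPM in HFD and 44.8 ± 6.54 CPM in NFD (edgeR adjusted p = 0.00122 in HFD against NFD), while Csf1r did not pass (260.2 ± 36.2 CPM in HFD and 222 ± 26.3 CPM in NFD, edgeR adjusted p = 0.447). In HFD+TUDCA against NFD, 1 of the 10 passed, Cd163, which was lower (log2 fold change -1.27 ± 0.15, edgeR adjusted p = 0.0134) and chosen after its value was seen. Of 10 smooth muscle markers, 2 fell in HFD against NFD (Cnn1 and Actg2, chosen after their values were seen), while Myh11 (-0.25 ± 0.24) and Acta2 (-0.42 ± 0.23), contractile proteins, had log2 fold changes with edgeR adjusted p of 0.598 and 0.337. The sum was 2707 to 5713 CPM in HFD+TUDCA, 2215 to 3590 CPM in HFD and 3544 to 4389 CPM in NFD. Of 10 white adipocyte markers, 1 fell (Retn, chosen in the same way), while Adipoq (-0.14 ± 0.19) and Plin1 (-0.65 ± 0.21) had log2 fold changes with edgeR adjusted p of 0.729 and 0.112. The sums were 6735 to 13851 CPM in HFD+TUDCA, 6243 to 10771 CPM in HFD and 8905 to 12230.0 CPM in NFD. Of 10 heart markers, 3 fell, namely Myh6 (log2 fold change -2.25 ± 0.51, edgeR adjusted p = 0.0410), Tnnt2 (-1.91 ± 0.34, edgeR adjusted p = 0.0164) and Nppb, the last chosen in the same way. Of 8 airway markers, 1 fell (Cyp2f2, chosen in the same way), while Scgb1a1 and Scgb3a2, secretory proteins of the airway, had log2 fold changes of -2.55 ± 1.62 and -3.12 ± 1.49 (edgeR adjusted p = 0.427 and 0.288). None of 8 mesothelial, 7 Schwann cell and 8 adrenal markers tested passed in HFD against NFD. The mesothelial sum was 33.9 to 266 CPM in HFD+TUDCA, 103 to 221 CPM in HFD and 154 to 288 CPM in NFD, and Msln and Upk3b had log2 fold changes of -1.08 ± 0.27 and -0.57 ± 0.33 (edgeR adjusted p = 0.0507 and 0.372). The Schwann cell sum was 199.9 to 296 CPM in HFD+TUDCA, 165 to 268 CPM in HFD and 229 to 306 CPM in NFD. Cyp11b1 and Star, of adrenal steroid synthesis, had log2 fold changes of -0.66 ± 2.21 and -0.67 ± 1.89 (edgeR adjusted p = 0.901 and 0.883). No marker of these lists was at 0 in all libraries of a group. An earlier analysis of these data had set apart HFD replicates 1 and 4 and HFD+TUDCA replicate 4. Without these 2 HFD libraries, Cd34 had a log2 fold change of -1.02 in HFD against NFD (edgeR adjusted p = 0.0201). The part of other cells in the levels of the 10 genes was not tested.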

How the data were processed

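Poly(A) RNA of 12 aorta libraries, 4 a group by the sample titles, was sequenced from NEBNext Ultra libraries, per the labels' protocols. The authors deposited counts and FPKM values for 22183 genes, per the file headers. The deposited values were treated like expected counts, since 8.53% to 9.43% of a library's values were not whole, and they were rounded before testing. The build is GRCm38, per the submitters' processing notes; which aligner and counter were used, and whether by strand, is not given in the sources used here. Each library held 15199312 to 22061687 counts. Poly(A) selection, and the division of reads between near copies, can change the measured levels.

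Pairs of groups were tested with the quasi-likelihood test of edgeR 4.0.16 in R 4.3.3 (robust fit, TMM scaling, filterByExpr at 10 counts and also 15 in total). Benjamini-Hochberg adjustment was over all genes tested, with a threshold of 0.05. The SE is the log2 fold change over the root of its F value, and CPM used TMM factors of all 12 libraries, and centred log2 CPM a prior count of 2. Alternatives were RLE and upper-quartile scaling, other filters and thresholds, DESeq2 1.42.0, limma 3.58.1 (voom, and limma-trend on log2(FPKM + 1) and log2(FPKM + 0.1)), 1 fit of all 12 libraries, a replicate block, and libraries left out. The code was tested on simulated data in which a small share of genes was changed. Of 2-fold changes, it recovered 19.4% in HFD vs NFD, 1.49% in HFD+TUDCA vs HFD and 16.4% in HFD+TUDCA vs NFD. Of 4-fold changes, it recovered 81.8%, 48.5% and 72.7%. A gene that did not pass may therefore still differ between groups. Coordinates are from GENCODE M21, promoters from RefSeq, and tables and figures were made with Python 3.11.15, pandas 2.3.3, numpy 2.4.6 and matplotlib 3.10.9.

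The genes, the 18 lists including them, and the tests were chosen with earlier results of these data known. Named are all 10 genes, the first 2 tested symbols of each list (except 2 genes not reported here), Ly6c1, Ly6e, Pcolce and the genes of nearest profile; other genes named were chosen after their values were seen, as the text says beside them.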

Additional observations from a re-analysis of the deposited data

Results flagged for a closer look

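In 4 of the 30 sets of 4 libraries (10 genes in 3 groups), 1 library lay far from the other 3 by Dixon's criterion, which chance exceeds in about 1 of 20 sets. Dpt was at 247 CPM in HFD+TUDCA replicate 3, above the other HFD+TUDCA libraries. Ly6a was at 205 CPM in HFD+TUDCA replicate 4, below the other HFD+TUDCA libraries. Pcolce2 was at 36.6 CPM in HFD replicate 3, above the other HFD libraries. Pi16 was at 156 CPM in NFD replicate 1, below the other NFD libraries.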

How the results depend on the processing

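Each result was recomputed under 21 alternatives. In 1 of them, HFD replicates 1 and 4 and HFD+TUDCA replicate 4 were left out together. Each comparison then lost only those of these 3 libraries that were in its 2 groups. In HFD against NFD, Cd34 kept its call and all 10 genes kept their sign throughout. The count of the 10 genes called was 2 as reported. It was 1 with upper-quartile scaling, without a low-count filter, on log2(FPKM + 1) and on log2(FPKM + 0.1). It was also 1 with a fold change of at least 2 as a further condition, and without HFD replicates 1 and 4. DESeq2 gave 5, and leaving out 1 library gave 1 to 5. All genes gave 720 calls as reported, 1703 in DESeq2, 374 without HFD replicates 1 and 4, and 1390 at a threshold of 0.1. With 1 library left out they gave 178 to 1181.

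In HFD+TUDCA against HFD, all genes gave 0 calls as reported, 355 in DESeq2 and 115 in 1 fit of all 12 libraries. Signs turned for values near 0. The log2 fold change of Clec3b was -0.0270 on log2(FPKM + 1), -0.0274 on log2(FPKM + 0.1), -0.0146 in 1 fit of all 12 libraries, -0.20 with the 3 libraries left out together and -0.15 to 0.18 with 1 library left out. With 1 library left out, Dpt ranged from -0.15 to 0.25 and Pi16 from -0.20 to 0.073. With the 3 libraries left out together, Dpt was at -0.15, Pi16 at 0.00706 and Pcolce2 at -0.24.

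In HFD+TUDCA against NFD, the 10 genes gave 1 call as reported, 2 in DESeq2 and 0 to 2 with 1 library left out. All genes gave 29 calls as reported, 543 in DESeq2, 44 on log2(FPKM + 1) and 92 at a threshold of 0.1. With 1 library left out they gave 4 to 682, the highest without HFD+TUDCA replicate 4. Leaving out the 3 libraries together removed only that library here, so it was the same fit. Gsn ranged from -0.20 to 0.10 with 1 library left out. The cause of these shifts was not tested.

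The replicate numbers share no stated origin. Deviations of same-numbered libraries correlated at 0.09 to 0.40 in HFD and NFD, where those of other numbers gave -0.33 to 0.36. In both other comparisons the same-numbered correlations were negative. Without a stated shared origin, the numbers were not taken as pairs. With the replicate number as a block, all genes gave 776 calls in HFD against NFD, 0 in HFD+TUDCA against HFD and 8 in HFD+TUDCA against NFD, and the 10 genes gave 0 in the last (for Cd34, edgeR adjusted p = 0.195). On log2(FPKM + 0.1) the median of all genes shifted by -0.10 in HFD against NFD and by -0.12 in HFD+TUDCA against NFD (-0.10 on log2(FPKM + 1)). Depth left at least 294 counts of each of the 10 genes in each library.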
